A study of Mus musculus with 116 samples.

Results

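The joins described here are those that formed at a Cas9 break in the Myc gene after DNA ligase IV (Lig4) was put back into mouse pro-B cells that lacked it. They were chosen by sample title: 12 junction lists of the 116 samples in the series, namely 3 libraries each of Lig4-/- +Lig4 clone A1 and Lig4-/- clone A1, and 3 each of Lig4-/- +Lig4 clone C and Lig4-/- clone C. Together these lists hold 167091 junctions. All cells were v-Abl-transformed pro-B cells, immature B-lineage cells made permanent with the v-Abl oncogene, and all carried an Emu-Bcl2 transgene, which drives the survival factor Bcl2 in B cells. Every library compared came from cells nucleofected with Cas9 and a c-Myc guide RNA and arrested in G1 with STI-571, an Abl kinase inhibitor, at 3 µM for 96 h. Each line is a clone, so A1 and C are 2 lineages rather than samples of a population. How Lig4 was added back, and whether the 3 replicates of a clone were separate cultures, is not given in the sources used here. P-values therefore measure the spread between these libraries, which may be technical. The lists carry no expression values, so genotype and cell type rest on the labels. For reference, 3 libraries of wild-type clone A (WT A) and 3 each of Lig4-/- Ku70-/- clones A1_1 and C1 were read in the same way.

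Lig4 with its partner XRCC4 seals broken ends in classical non-homologous end joining, the pathway that repairs most breaks in G1. In that pathway the Ku heterodimer, of which Ku70 is a subunit, binds the ends and limits their resection, and ends are joined after little or no trimming. Without Lig4, residual repair is called alternative end joining, and its joins are known for base loss at both ends and for short identical stretches (microhomology) at the joint. In pro-B cells arrested with an Abl inhibitor the RAG recombinase is induced and cuts the Igk light-chain locus, which gives a second set of broken ends to which a Myc break can be joined.

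In the assay a primer beside the break, on the bait side, is extended across the joint into whatever sequence, the prey, the bait end was joined to. The bait lay on the plus strand of chromosome 15 (mm10) in Myc, which spans 61985341 to 61990361, and the break followed base 61987303, 1963 bp from the gene's start. Exon and intron bounds were not used here. The sequence around the break, read from the junction lists at chr15:61987274-61987333, is shown because every structure below is counted from its midpoint. It holds 30 bases on each side, and the capitals mark a GGG, a possible Cas9 PAM, that begins 3 bases beyond the break.
Myc break site: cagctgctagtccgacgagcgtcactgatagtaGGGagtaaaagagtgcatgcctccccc
The last bait base before the break is A and the first prey base after it is G.

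The commonest joins of the add-back libraries are printed next with 20 bases on each side, because they show what a restored join looks like. Capitals mark inserted bases, and where a class holds several inserted sequences the commonest is shown.
Insertion of 1 bp, both ends whole: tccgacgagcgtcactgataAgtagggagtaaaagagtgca
Insertion of 2 bp, both ends whole: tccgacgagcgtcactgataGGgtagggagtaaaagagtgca
Insertion of 3 bp, both ends whole: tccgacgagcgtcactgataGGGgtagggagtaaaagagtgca
Insertion of 4 bp, both ends whole: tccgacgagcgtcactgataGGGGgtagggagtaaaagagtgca
Loss of 1 bait base: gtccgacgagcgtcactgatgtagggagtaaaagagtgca
The 2 commonest joins of the Lig4-/- libraries were the 1 bp and 2 bp insertions between whole ends, with 104 and 28 reads, of which 87 and 27 came from Lig4-/- A1 replicate 2. The next 3 were deletions with microhomology, in which the capitals mark bases that both ends share.
Loss of 3 bp, overlap TA: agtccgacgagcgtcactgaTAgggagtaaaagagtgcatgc
Loss of 27 bp, overlap GAG: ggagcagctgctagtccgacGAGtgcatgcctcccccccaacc
Loss of 29 bp, overlap GC: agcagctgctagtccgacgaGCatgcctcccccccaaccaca

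Depth differed greatly between the groups at equal numbers of raw reads. Both A1 groups had been brought to 201858 raw reads and both C groups to 273198. The Lig4-/- +Lig4 A1 lists, written +Lig4 A1 from here on, held 8642, 12595 and 11456 junctions, against 86, 411 and 82 in Lig4-/- A1. The +Lig4 C lists held 47225, 41481 and 44440, against 138, 385 and 150 in Lig4-/- C. A count of 0 in a Lig4-/- library therefore allows a share of up to 3.49%, 0.730% and 3.66% in A1 and 2.17%, 0.779% and 2.00% in C (3 counts of the total, counting error only). Shares of rejoins rest on fewer: 49, 362 and 16 rejoins in Lig4-/- A1 and 58, 323 and 100 in Lig4-/- C. Lig4-/- A1 replicate 2 stood apart from the other 2: 132 of its 411 junctions had both ends whole, against 2 of 86 and 0 of 82. Of its 87 insertions of 1 bp between whole ends, 68 were A and 11 were G, a make-up near that of the add-back libraries given below, and whether reads of another library contributed to it was not tested. It carries most of the whole-end joins and insertions behind the Lig4-/- A1 means. Values are given below with and without the second replicates of both Lig4-/- groups where they differ most. By the sequencing run in the read names, all 3 +Lig4 A1 libraries shared their runs with WT A and with a further Lig4-/- A1 set brought to 396387 raw reads, but not with the Lig4-/- A1 libraries of the main comparison. No +Lig4 C library shared a run with Lig4-/- C, so run and group cannot be told apart there.

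Junctions were far more numerous with Lig4 added back, in both lineages. Junctions per 100000 raw reads, with 0.5 added to each count, were 4281, 6240 and 5676 in +Lig4 A1 and 42.9, 204 and 40.9 in Lig4-/- A1. In lineage C they were 17286, 15184 and 16267 in +Lig4 C and 50.7, 141 and 55.1 in Lig4-/- C. In both lineages every add-back library lay above every Lig4-/- library. The mean log2 difference was 7.01, a 129-fold rise, being 75.2-fold in A1 and 221-fold in C. With lineage as the stratum the exact two-sided permutation p was 0.005, the smallest that the 400 relabellings can give, and 0.00652 after Benjamini-Hochberg adjustment over the 43 measures compared. Of those 43 measures, 37 passed the adjusted threshold of 0.05 and 33 separated all add-back from all Lig4-/- libraries in both lineages. For these 43 measures, every p written as 0.005 below has this adjusted value in the comparison of add-back with Lig4-/-. P-values of alternatives, such as those over distinct junctions or without some libraries, were not adjusted. Without both second replicates of Lig4-/- the log2 difference was 7.63 (exact permutation p = 0.01). Over distinct junctions, each counted once however many reads it had, it was 4.11 (exact permutation p = 0.005). Distinct junctions were told apart by chromosome, bait end, prey start, orientation and insertion length or overlap, not by inserted bases.

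The size of the rise varied with the kind of join. A rejoin here is a joint to chromosome 15 within 100 kb in the original orientation, and its length change is inserted bases minus bases lost. Rejoins that gained 1 bp stood at 1469 ± 259 per 100000 raw reads in +Lig4 A1 (SD, n = 3) and 17.8 ± 29.5 in Lig4-/- A1, and at 4853 ± 150.5 in +Lig4 C and 2.26 ± 2.65 in Lig4-/- C. Stratified folds, which are means of log2 differences, were 1422 for rejoins gaining 1 bp, 1958 for those gaining 2 bp or more, and 494 for those losing 1 to 10 bp (exact permutation p = 0.005 each). Rejoins that lost 11 to 100 bp rose 31.9-fold (p = 0.005, exact permutation). Those losing over 100 bp rose 2.85-fold, with overlapping groups (exact permutation p = 0.04, adjusted 0.0465). Lig4-/- A1 replicate 3 held no rejoin that gained 1 bp and Lig4-/- C replicate 3 none that gained 2 bp or more, so the folds of these classes depend on the added 0.5 and are not bounds. Without both second Lig4-/- replicates the folds were 2404 for a gain of 1 bp, 4814 for a gain of 2 bp or more, 951 for a loss of 1 to 10 bp, 61.9 for 11 to 100 bp and 4.78 for over 100 bp (exact permutation p = 0.01 each). No test of the differences between classes was made.

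Other kinds of join did not move with Lig4 beyond the spread between libraries. Inverted joins, those in the reverse orientation within 100 kb, stood at 2.06 and 2.50 per 100000 raw reads in +Lig4 A1 and C and at 2.23 and 2.74 in Lig4-/- A1 and C. Their log2 difference was -0.07 (exact permutation p = 0.78). Joins to other chromosomes whose bait and prey alignments overlapped by 8 bp or more, longer than the microhomology usually described at end joins, stood at 13.5 ± 1.51 and 12.02 ± 3.32 per 100000 with Lig4 added back (SD, n = 3). Without Lig4 they stood at 11.3 ± 1.59 and 9.33 ± 6.05, and in WT A at 10.3. Their log2 difference was 0.42 (exact permutation p = 0.265, adjusted 0.285). This class made up 52.7% and 45.8% of the interchromosomal joins of Lig4-/- A1 and C, and 4.13% and 2.94% of those of +Lig4 A1 and C. Values without such overlaps are given below for microhomology and for interchromosomal joins.

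**Figure D1:**
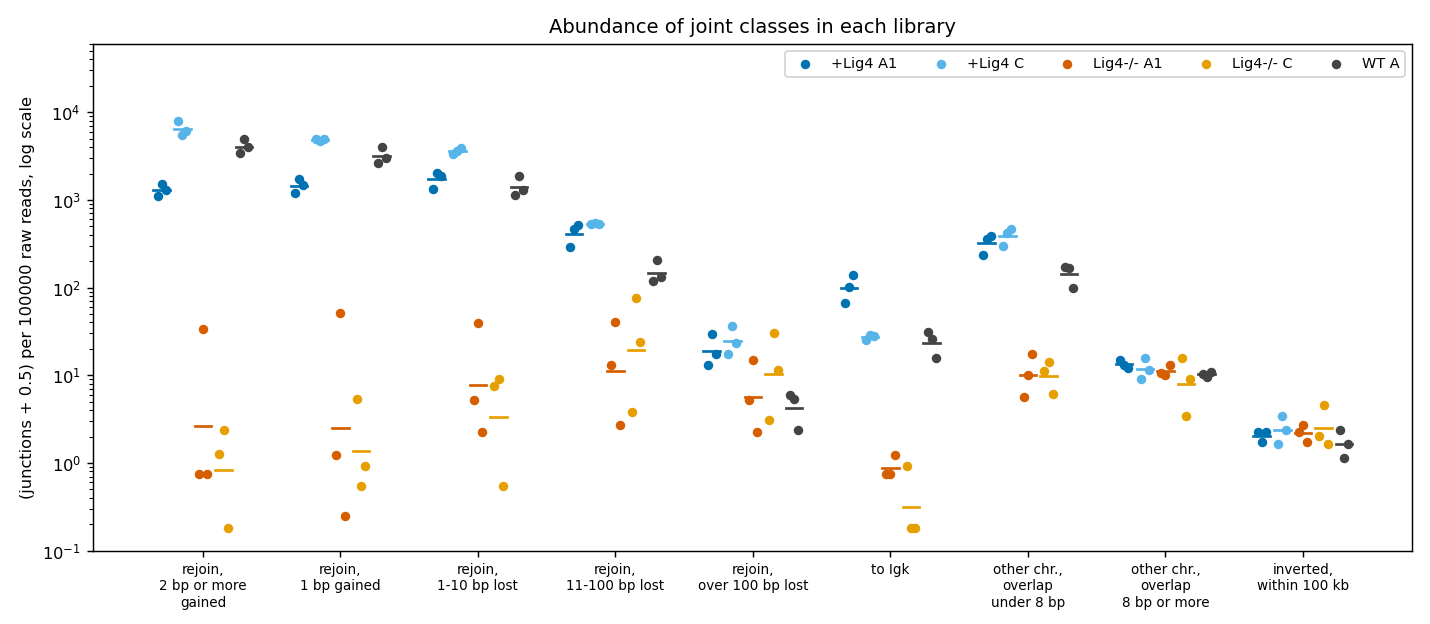
Abundance of 9 classes of join, as (junctions + 0.5) per 100000 raw reads on a log axis. Each point is a library and each bar the geometric mean of 3. Classes run from rejoins with gained bases at the left, where every +Lig4 point lies far above every Lig4-/- point of its lineage, to inverted joins at the right, where all groups lie together near 2.

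Restored joins lay at the break itself. The share of junctions whose prey began within 10 bp of the break, in rejoining orientation, was 89.7%, 88.6% and 86.5% in +Lig4 A1 and 95.9%, 94.2% and 94.6% in +Lig4 C. Lig4-/- A1 had 14.0%, 65.2% and 6.10%, and Lig4-/- C had 28.99%, 15.3% and 12%. Every add-back library was above every Lig4-/- library, and the stratified difference was 68.0 percentage points (exact permutation p = 0.005), and 19.0 points over distinct junctions (exact permutation p = 0.015). Both ends were whole, with no base lost from bait or prey, in 44.4%, 42.1% and 39.4% of +Lig4 A1 junctions and in 59.2%, 53.2% and 54.5% of +Lig4 C junctions. In Lig4-/- A1 the shares were 2.33%, 32.1% and 0%, and in Lig4-/- C 10.1%, 0.519% and 1.33%. The difference was 41.1 points (exact permutation p = 0.005), and 45.3 points without both second replicates (exact permutation p = 0.01). When each distinct junction, rather than each read, was counted, it was -0.283 points (exact permutation p = 0.665). Whole-end joins of equal insertion length count together there, so that share is limited by the definition of a distinct junction. An exact rejoin with no base gained or lost was not listed in any of these libraries, so such repair is outside what the lists count.

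The bait end lost more than the prey end in restored rejoins. At the bait end 52.9% ± 1.57 of +Lig4 A1 rejoins and 62.3% ± 2.43 of +Lig4 C rejoins had lost nothing (SD, n = 3), and at the prey end 78.1% ± 2.60 and 87.2% ± 1.25. The lists hardly ever place a bait end beyond the break or a prey end before it, and an inserted base equal to a neighbour at the break is listed as an insertion between whole ends. When bait bases were missing they were few: 11.98%, 9.67% and 6.36% of +Lig4 A1 rejoins had lost 1, 2 and 3, and 12.2%, 7.62% and 5.74% of +Lig4 C rejoins. Loss of over 30 bait bases was found in 1.61% and 0.455%, against 20.4% and 23.7% of Lig4-/- A1 and C rejoins. The bait alignment is 109 bp long, which limits the bait loss that can be seen. By median, the bait had lost 0, 0 and 1 bases in the +Lig4 A1 libraries and 0 in each +Lig4 C library. The Lig4-/- medians were 26, 2 and 26 in A1 and 23, 17 and 21.5 in C.

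How the losses were combined also differed. Rejoins were split by whether bases were missing from neither end, the bait only, the prey only or both. Bases that both ends share were counted as kept at each end. In +Lig4 A1 these made up 45.0%, 33.1%, 7.89% and 14.0% of rejoins, and in +Lig4 C 57.2%, 30.04%, 5.15% and 7.64%. In Lig4-/- A1 and C, 60.5% ± 24.3 and 79.2% ± 31.3 had lost bases from both ends (SD, n = 3). Loss at both ends fell by 59.0 points with Lig4 added back, and loss from the bait only rose by 20.8 points (exact permutation p = 0.005 each). Loss from the prey only differed by -1.61 points, less than the spread between libraries (exact permutation p = 0.55).

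**Figure D2:**
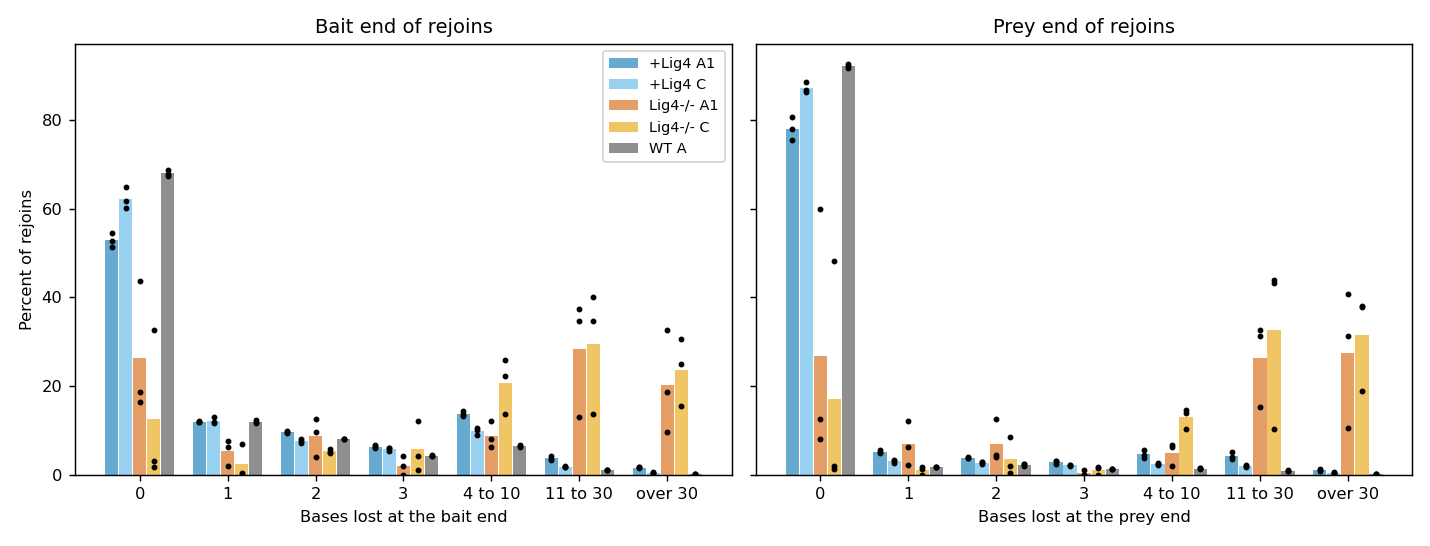
Percent of rejoins by bases lost at the bait end (left) and the prey end (right). Bars are means of 3 libraries and points are the libraries. Loss of 0 bases is the tallest class of +Lig4 and WT A at both ends, while the Lig4-/- bars rise again at 11 to 30 and over 30 bases.

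Inserted bases marked most restored joins. An insertion of any length was found in 72.3%, 70.0% and 67.3% of +Lig4 A1 junctions and in 88.1%, 84.5% and 84.8% of +Lig4 C junctions. Lig4-/- A1 had 12.8%, 56.9% and 14.6%, and Lig4-/- C had 28.3%, 19.2% and 18.7%. The groups did not overlap, and the stratified difference was 52.8 points, and 34.8 points over distinct junctions (exact permutation p = 0.005 each). Insertions of exactly 1 bp made up 31.5%, 30.7% and 29.8% in +Lig4 A1 and 28.1%, 31.6% and 31.3% in +Lig4 C. In Lig4-/- A1 they made up 3.49%, 26.3% and 2.44%, and in Lig4-/- C 13.04%, 4.42% and 5.33%. The difference for 1 bp was 21.3 points, for 2 bp 15.998 points and for 3 bp or more 15.4 points (exact permutation p = 0.005 each). With each distinct fragment counted once the 1 bp difference was 7.28 points and did not pass (exact permutation p = 0.07).

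Between whole ends, short insertions dominated. Of the insertions between whole ends, 55.6% ± 0.595 were 1 bp long in +Lig4 A1 and 44.9% ± 4.50 in +Lig4 C (SD, n = 3), against 46.7% in WT A. A length of 2 bp made up 24.1% and 25.8%, 3 bp 12.5% and 16.6%, and 4 bp 4.85% and 7.85%. Insertions of 8 bp or more were 0.326% and 0.497%. Lineage C thus carried more of the longer insertions, a difference between single clones for which no test of this share was made.

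The base inserted at whole ends was mostly the one already next to the break. Among 1 bp insertions between whole ends, A, which equals the last bait base, made up 77.7% ± 1.14 in +Lig4 A1 (5899 of 7598) and 74.8% ± 0.794 in +Lig4 C (24740 of 33080; SD, n = 3), beside 75.1% ± 0.468 in WT A. G, which equals the first prey base, made up 14.5% ± 0.384 and 16.1% ± 1.02. C made up 4.35% and 4.77%, and T 3.36% and 4.39%. The few 1 bp insertions of Lig4-/- libraries were also mostly A, 70 of 89 in A1, of which 68 came from replicate 2, and 14 of 15 in C. In Lig4-/- Ku70-/- A1_1 and C1 all but 3 were A, 206 of 209 and 525 of 525.

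Longer insertions had another composition. The share of G and C among inserted bases was 54.7% ± 1.90 and 60.2% ± 3.38 for 2 bp insertions in +Lig4 A1 and C, and 59.2% ± 1.27 in WT A (SD, n = 3). For 3 bp it was 63.9% and 63.8%. For 4 to 20 bp it was 64.1% and 63.8% (WT A 64.4%). The commonest 2 bp insertion was GG, 24.1% in +Lig4 A1, 28.4% in +Lig4 C and 29.8% in WT A, followed by AA at 20.2%, 16.7% and 17.7%. GGG was the commonest of 3 bp, at 18.9%, 21.0% and 22.8%. As background, terminal deoxynucleotidyl transferase, which is active in pro-B cells, adds bases without a template and favours G and C. Its level was not measured in these lists.

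Length change brings these features together. In +Lig4 A1, 29.3% of rejoins were longer by 1 bp and 14.4% by 2 bp. In +Lig4 C the same changes made up 30.8% and 19.3%, and in WT A 35.8% and 22.4%. Losses of 1, 2, 3 and 4 bp stepped down from 10.2% to 6.41%, 5.62% and 4.78% in +Lig4 A1, and from 6.80% to 4.39%, 3.79% and 3.62% in +Lig4 C. Listed rejoins of unchanged length made up 1.31% and 1.56%. Exact rejoins are not listed, so these shares leave them out and do not show how often length was kept. The median length change was +1 bp in each add-back library. In Lig4-/- A1 the medians were -53, -1 and -37.5 bp, and in Lig4-/- C -3.5, -51 and -59.5 bp. The share of rejoins losing 1 to 10 bp differed by 10.5 points between add-back and Lig4-/-, which did not pass (exact permutation p = 0.07, adjusted 0.0792).

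**Figure D3:**
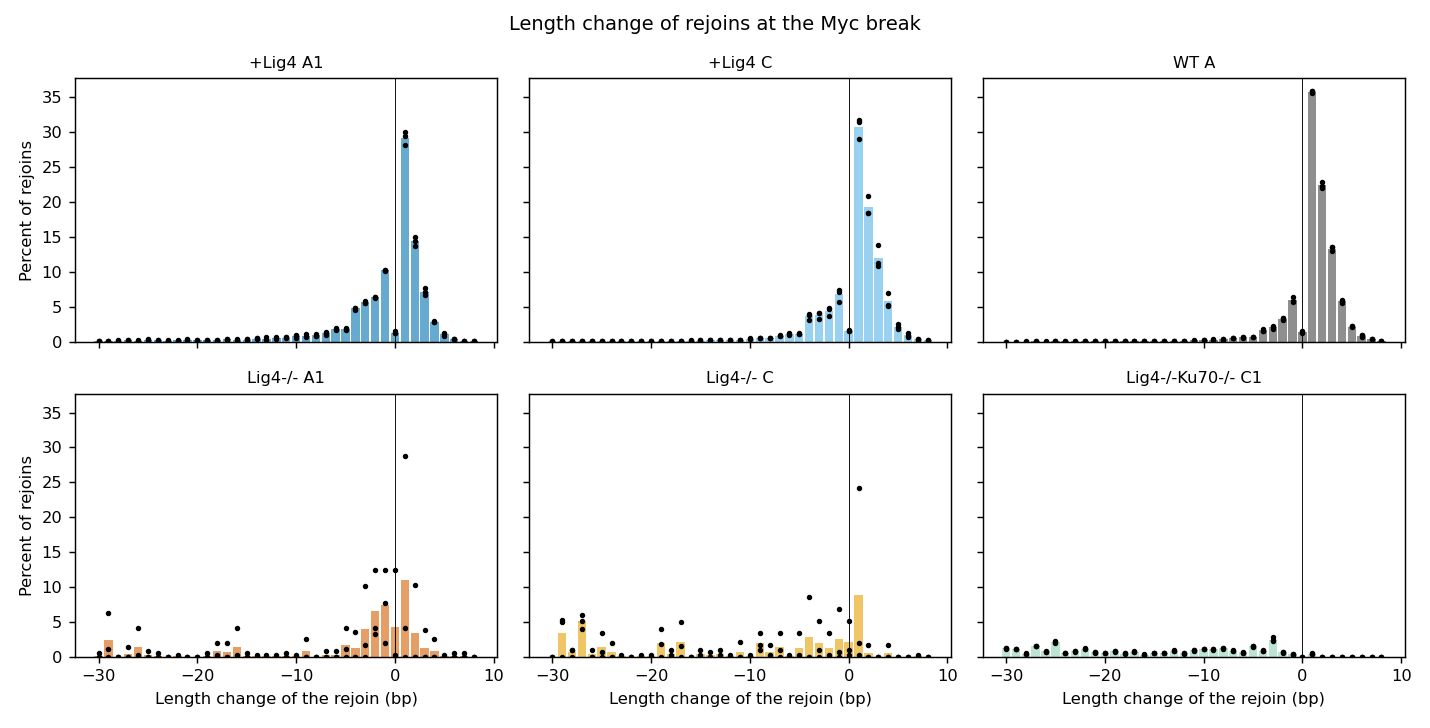
Percent of rejoins at each length change from a loss of 30 bp to a gain of 8 bp. Bars are means of 3 libraries and points are the libraries. +Lig4 A1, +Lig4 C and WT A peak at a gain of 1 bp (29.3%, 30.8% and 35.8%) and are low at 0, while Lig4-/- Ku70-/- C1 is flat and low across the window. Exact rejoins are not listed, so the bar at 0 leaves them out.

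Microhomology fell when Lig4 was added back. Overlap of at least 2 bp between bait and prey alignments was found in 4.42%, 5.38% and 5.68% of +Lig4 A1 junctions and 1.72%, 2.37% and 2.35% of +Lig4 C junctions. Lig4-/- A1 had 57.0%, 23.8% and 70.7%, and Lig4-/- C 47.1%, 58.4% and 68.7%. No add-back library reached the lowest Lig4-/- value. The share fell by 50.6 points (exact permutation p = 0.005), and by 57.2 points without both second replicates (exact permutation p = 0.01). Split by length, overlap of 2 to 7 bp fell by 30.7 points and overlap of 8 bp or more by 19.9 points (exact permutation p = 0.005 each). Per 100000 raw reads, joins with such overlap still rose 8.29-fold (exact permutation p = 0.005), while all junctions together rose 129-fold. Overlap of exactly 2 bp made up 3.98% and 1.80% of +Lig4 A1 and C junctions and 11.2% and 20.0% of Lig4-/- A1 and C junctions. Overlap of 8 bp or more made up 0.292% and 0.0793%, against 22.8% and 17.4%.

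The remaining microhomology of restored rejoins was uneven between kinds of end loss. Among +Lig4 A1 rejoins that had lost bases from the prey only, 29.9% had at least 2 bp of overlap, and 23.7% in +Lig4 C. Nearly all of these reads were the 3 bp TA deletion printed above, 700 of 728 in +Lig4 A1 and 1528 of 1578 in +Lig4 C. Without this deletion the shares were 1.63% and 0.978% (reads pooled over libraries). Its shared TA counts as kept at both ends, so its place among prey-only losses follows from that scoring. For joins with overlap, the end that lost the shared bases cannot be told. Among rejoins that had lost bait bases only, 0.735% and 0.438% had at least 2 bp of overlap. Insertions were found in 57.7% and 72.3% of bait-only rejoins and in 33.2% and 51.2% of prey-only rejoins. The prey-only rejoins include the TA deletion, 700 of 2420 in +Lig4 A1 and 1528 of 6643 in +Lig4 C. It carries no insertion, so its placement lowers the prey-only insertion shares, and shares without it were not computed. Where both ends had lost bases, 42.2% and 69.8% still carried an insertion. Direct joins, with neither insertion nor overlap, differed by 3.31 points between add-back and Lig4-/-, with opposite signs in the 2 lineages (7.33 in A1 and -0.713 in C; exact permutation p = 0.135).

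**Figure D4:**
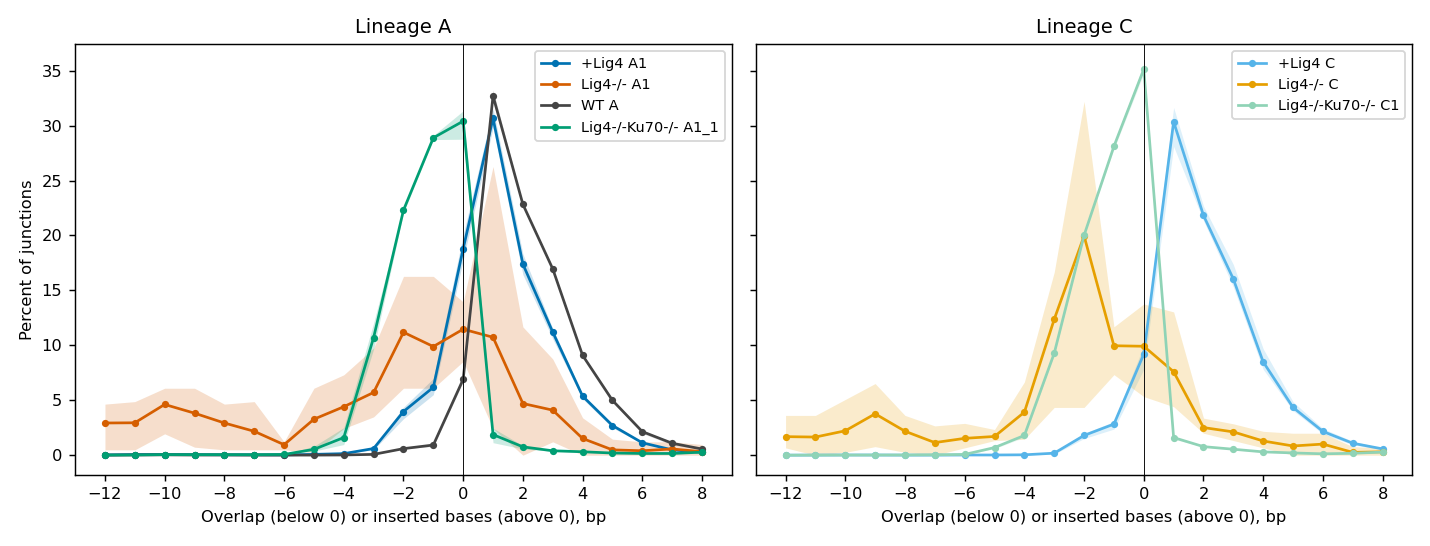
Percent of junctions by overlap (below 0) or inserted bases (above 0), in bp, for lineage A (left) and lineage C (right). Lines are means of 3 libraries and bands run from the lowest to the highest library. +Lig4 and WT A peak at an insertion of 1 bp, Lig4-/- Ku70-/- peaks at direct joins (0), and Lig4-/- C peaks at an overlap of 2 bp (20.0%).

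A few individual structures made up much of the restored repertoire. They were ranked by their counts, so their shares are descriptions without a test. The 1 bp insertion between whole ends printed above was 24.4%, 23.4% and 22.1% of all +Lig4 A1 junctions and 23.5%, 25.6% and 25.5% of all +Lig4 C junctions, any base counted. In Lig4-/- A1 it was found in 2, 87 and 0 junctions, and in Lig4-/- C in 12, 1 and 2. Reads that matched the printed 1 bp sequence in every base made up 71.0% of the add-back reads of that structure. Insertions of 2 bp between whole ends made up 10.1% ± 0.732 and 14.4% ± 1.41 in +Lig4 A1 and C (SD, n = 3), those of 3 bp 5.27% ± 0.383 and 9.25% ± 1.44, and those of 4 bp 2.04% and 4.39%. Lig4-/- A1 replicate 2 had 27 of the 2 bp and 10 of the 3 bp structure, and the other 5 Lig4-/- libraries together had 1. The loss of a single bait base made up 5.53% ± 0.212 in +Lig4 A1 and 3.59% ± 0.475 in +Lig4 C.

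The microhomology deletions printed above occurred in both genotypes. The loss of 3 bp at the TA overlap was found 5, 2 and 0 times in Lig4-/- A1 and 0, 3 and 0 times in Lig4-/- C. With Lig4 added back it was 2.12% ± 0.244 of A1 junctions (160, 273 and 267 reads) and 1.15% ± 0.124 of C junctions (SD, n = 3), against 0.396% in WT A. The 27 bp loss at GAG was found 3, 11 and 2 times in Lig4-/- C, and 2, 16 and 3 times among the far more numerous junctions of +Lig4 C. The 29 bp loss at GC was found 0, 15 and 3 times in Lig4-/- C and 3, 3 and 5 times in +Lig4 C. In lineage A1 the 27 bp loss was found 4, 3 and 4 times with Lig4 and 0, 1 and 0 times without, and the 29 bp loss 2, 6 and 1 times against 0, 2 and 0. The TA deletion thus had many more reads in +Lig4 than in Lig4-/- in both lineages, while the longer losses numbered 16 reads or fewer in each of these libraries. Lig4-/- Ku70-/- cells held it too, at 107 per 100000 raw reads in A1_1 and 294 in C1, beside 116 in +Lig4 A1 and 186 in +Lig4 C. In A1_1 and C1 the 27 bp loss stood at 40.6 and 143 per 100000, and the 29 bp loss at 22.6 and 48.3.

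Add-back libraries held fewer distinct joins at equal depth. Inserted bases were not compared, so different insertions of equal length at the same ends counted as the same join. Insertions were commoner with Lig4, so this counting lowers the add-back values most. Expected distinct joins among 80 drawn junctions were 40.2 ± 1.88 in +Lig4 A1 and 32.9 ± 1.43 in +Lig4 C, against 64.002 ± 13.6 and 71.4 ± 1.11 in Lig4-/- A1 and C (SD, n = 3). The difference was -31.1 (exact permutation p = 0.005). WT A had 27.5 ± 0.478.

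Deletions on the prey side became a small part of the list. Prey 11 bp to 100 kb beyond the break, in rejoining orientation, made up 4.06%, 4.95% and 5.83% of +Lig4 A1 junctions and 2.09%, 2.68% and 2.25% of +Lig4 C junctions. Lig4-/- A1 had 41.9%, 22.6% and 12.2%, and Lig4-/- C 12.3%, 68.1% and 54.7%. The groups did not overlap, and the share fell by 31.6 points (exact permutation p = 0.005). Over distinct junctions the difference was -11.5 points (exact permutation p = 0.24). Within rejoins, the share losing 11 to 100 bp fell by 36.4 points and the share losing over 100 bp by 20.4 points (exact permutation p = 0.005 each). Inverted joins fell as a share by 3.13 points (exact permutation p = 0.005), although their number per 100000 raw reads was close in all groups, as given above.

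Joins to other chromosomes fell as a share and rose in number. They made up 5.81%, 5.97% and 7.11% of +Lig4 A1 junctions and 1.78%, 2.84% and 2.90% of +Lig4 C junctions, against 37.2%, 9.73% and 74.4% in Lig4-/- A1 and 52.2%, 12.2% and 26.7% in Lig4-/- C. The share fell by 30.9965 points (exact permutation p = 0.005), and over distinct junctions the difference was -3.85 points (exact permutation p = 0.7). With overlaps of 8 bp or more left out it was -18.9 points (exact permutation p = 0.02). The counts were 502, 752 and 814 in +Lig4 A1 and 32, 40 and 61 in Lig4-/- A1. In lineage C they were 840, 1176 and 1290 with Lig4 and 72, 47 and 40 without. Per 100000 raw reads they rose 18.1-fold, 15.6-fold in A1 and 20.9-fold in C (exact permutation p = 0.005). With overlaps of 8 bp or more left out the rise was 35.4-fold (exact permutation p = 0.005). Insertions were found in 31.7% and 50.5% of the interchromosomal joins of +Lig4 A1 and C and in 19.2% and 15.9% of those of Lig4-/- A1 and C, and overlap of at least 2 bp in 21.8% and 16.5% against 73.2% and 66.5%. Without overlaps of 8 bp or more the latter shares were 18.4% and 13.99% against 40.8% and 35.1%.

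The largest single partner was the Igk locus on chromosome 6, where RAG makes its own breaks in these cells. Igk (chr6:67555636-70726754) took 26.5%, 27.4% and 34.5% of the interchromosomal joins of +Lig4 A1 and 8.10%, 6.63% and 5.97% of those of +Lig4 C. In Lig4-/- it took 3.12%, 2.50% and 3.28% in A1 (4 of 133 joins) and 2.78%, 0% and 0% in C (2 of 159). Every add-back library was above every Lig4-/- library of its lineage. The share rose by 16.2 points, 26.5 in A1 and 5.97 in C, and Igk joins per 100000 raw reads rose 98.6-fold (exact permutation p = 0.005 each). With 0 to 2 Igk joins in each Lig4-/- library, that fold depends on the added 0.5. Joins to other chromosomes outside Igk rose 14.9-fold. The lineages differed in size of effect, but no difference between lineages passed adjustment in any of the 43 measures.

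Within Igk the add-back joins fell into the Jk segments and the Vk side. Of 620 Igk joins in +Lig4 A1, 279 lay in the Jk region and 307 on the Vk side, and of 223 in +Lig4 C, 108 and 106. WT A had 258 and 26 of 289, so its Igk joins lay mostly at Jk. Of the joins in the Jk region, 60.7% ± 10.0 in +Lig4 A1, 80.7% ± 3.30 in +Lig4 C and 87.2% ± 5.95 in WT A lay within 10 bp of the start of a Jk segment (SD, n = 3), where RAG cuts. Single positions recurred. The base just before Jk2 (chr6:70722915) was joined 13 times in +Lig4 A1, 9 in +Lig4 C and 27 in WT A, the base before Jk5 (chr6:70723885) 12, 11 and 26 times, and the first base of Jk1 (chr6:70722562) 9, 5 and 12 times. No join in these 3 groups lay within 10 bp of the start of Jk3, a segment that mice do not use.

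The other antigen-receptor loci were minor partners. Igl on chromosome 16 was joined 6, 17 and 22 times in +Lig4 A1, 1, 1 and 0 times in +Lig4 C and 0, 0 and 1 times in WT A. Igh on chromosome 12 was joined 10 times in +Lig4 A1, 4 in +Lig4 C and 0 in WT A. The 5 most joined 1 Mb bins of the add-back libraries all lay in Igk or Igl.

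**Figure D5:**
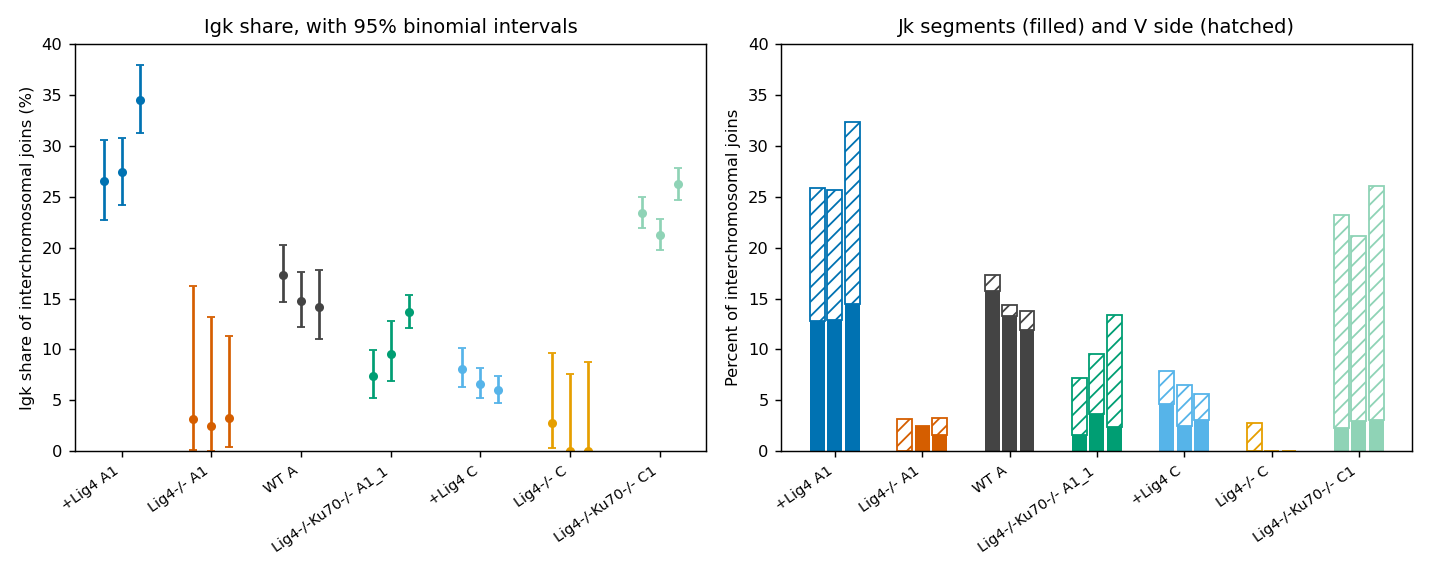
Left, Igk share of interchromosomal joins in each library with its exact 95% binomial interval. Right, the same split into the Jk region (filled) and the Vk side (hatched). +Lig4 A1 lies at 26.5% to 34.5% and +Lig4 C at 5.97% to 8.10%, and both have like parts at Jk and Vk, while WT A is mostly Jk.

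The add-back joins of clone A1 were next set beside WT A, a wild-type group sequenced on the same runs. With 3 libraries against 3 the smallest two-sided exact permutation p is 0.1, so none of the 43 measures could pass, although 37 had groups that did not overlap. WT A yielded 9209 ± 1926 junctions per 100000 raw reads against 5399 ± 1008 in +Lig4 A1 (SD, n = 3), 1.70-fold more, with groups that did not overlap. A further WT A set of other runs held 15888, 27583 and 28933 junctions at 310675 raw reads. Per raw read, that set overlapped +Lig4 A1. Counted as distinct junctions per 100000 raw reads, +Lig4 A1 was above WT A by 0.88 on the log2 scale. The distinct junctions themselves overlapped in number, at 1295, 1886 and 1940 in +Lig4 A1 and 1769, 2123 and 1541 in WT A. Raw reads were unequal, 201858 in each +Lig4 A1 library and 396387 in each WT A library, so this order gives no ranking of the groups. Both ends were whole in 63.1% ± 0.471 of WT A junctions and 42.0% ± 2.51 of +Lig4 A1 junctions. Insertions were found in 91.3% ± 0.353 and 69.9% ± 2.52, and direct joins in 6.91% ± 0.272 and 18.8% ± 1.16. Overlap of at least 2 bp was found in 0.860% ± 0.0517 and 5.16% ± 0.658. The +Lig4 A1 means thus lay between Lig4-/- A1 and WT A for whole ends, insertions and overlap of at least 2 bp. Other means were highest in +Lig4 A1. Direct joins made up 11.5% in Lig4-/- A1. Rejoins with bait-only loss made up 33.1% in +Lig4 A1, 13.3% in Lig4-/- A1 and 27.8% in WT A. Those losing 1 to 10 bp made up 34.6%, 22.4% and 15.7%. Compared within the shared runs, the differences from WT A ranged from -24.1 to -18.5 points for whole ends, from -24.3 to -18.9 for insertions and from 3.54 to 4.86 for microhomology over the 3 libraries.

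Differences from WT A were uneven by class. Rejoins gaining 2 bp or more were 3.12-fold fewer in +Lig4 A1 and those losing 11 to 100 bp 2.76-fold more, while those losing 1 to 10 bp overlapped between the groups (log2 difference 0.30). Against the further WT A set, rejoins gaining 2 bp or more were 2.39-fold fewer and those losing 11 to 100 bp 3.00-fold more. Interchromosomal joins were 2.20-fold more abundant than in WT A and Igk joins 4.18-fold, and against the further WT A set 4.69-fold and 14.2-fold. Each of these class comparisons has an exact permutation p of 0.1, except the overlapping class at 0.2. No wild-type group of lineage C was read here. Its shares of 55.6% ± 3.16 with whole ends and 85.8% ± 1.97 with insertions (SD, n = 3) stood between those of +Lig4 A1 and WT A.

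Against the Lig4-/- A1 set that shared runs with +Lig4 A1 the differences below had the direction of the main comparison. Junction abundance was 7.32 higher on the log2 scale, with a range of 6.97 to 7.52 over the 3 libraries. Whole ends were 41.0 points higher (37.9 to 43.8) and insertions 46.4 points higher. Microhomology was 56.5 points lower (-58.1 to -55.2) and the interchromosomal share 56.4 points lower. Each of these 5 was larger than the value for lineage A1 in the main comparison. Other measures differed less than there. The prey deletion difference was -14.9 points, against -20.6 for lineage A1 in the main comparison. Insertions of 3 bp or more differed by 2.27 points (2.08 to 2.63), against 9.11.

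Cells lacking both Lig4 and Ku70 gave a different contrast, added after the data had been seen. Their junctions were as many as those of the add-back cells within the spread between libraries: 4777 ± 1755 per 100000 raw reads in A1_1 and 15760 ± 556 in C1 (SD, n = 3), and the log2 values differed by 0.13 (p = 0.54 by exact permutation, adjusted 0.553). Structure differed at nearly equal depth. Of the 43 measures, 35 passed the adjusted threshold and 32 separated all libraries of the groups compared in both lineages. Add-back joins had an insertion 72.8 points more often and whole ends 48.2 points more often, and had overlap of at least 2 bp 30.1 points less often and direct joins 18.8 points less often (exact permutation p = 0.005, adjusted 0.00694 each). Rejoins gaining 2 bp or more were 787-fold more abundant with Lig4 added back, while those losing 11 to 100 bp and over 100 bp were 9.91-fold and 95.2-fold less abundant (exact permutation p = 0.005 each). Interchromosomal abundance did not pass (log2 difference -0.77, exact permutation p = 0.075, adjusted 0.0849).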

How the data were processed

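Junction lists with 1 line per read were used as the authors deposited them. Per the submitters' processing notes they rest on Bowtie2 and mm10, with versions not given in the sources used here. Per the labels, each set was normalised to a stated number of raw reads, libraries were sequenced on a MiSeq, and the protocol's enzyme blocking step was omitted. Reads carry no molecular identifiers in the deposited lists, so repeated reads may be copies of a molecule, and binomial intervals and the limits at 0 cover counting error only.

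From each list were computed the bait and prey distance from the break, the inserted or overlapping bases, orientation, and length change, with Python 3.11.15, numpy 2.4.6, pandas 2.3.3, scipy 1.17.1 and matplotlib 3.10.9. Shares are percent of junctions and abundances log2 of (count + 0.5) per 100000 raw reads. Groups were compared by exact two-sided permutation of libraries within lineage, adjusted over 43 measures by the Benjamini-Hochberg method. Calculations were tested on simulated data. The 5 commonest joins of each genotype were named. Igk, Igl, Igh and gene bounds came from RefSeq GRCm38.p6, and Igk joins were counted in a slightly wider window, from 67.5 to 70.8 Mb.

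Members, measures and loci were chosen with earlier results of these data known. All 15 pairs of replicates differed in a chi-square test of joint classes and shared no read names. Alternatives covered the window, the microhomology minimum, the pseudocount, repeated reads, each library left out and the replicate number as a block. GRO-seq, the RAG and zinc-finger breaks and the remaining Cas9 libraries of the series were not analysed here, apart from the further Lig4-/- A1 and WT A sets named.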

Additional observations from a re-analysis of the deposited data

Results flagged for a closer look

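Set against Lig4-/- Ku70-/- cells, the Igk share of interchromosomal joins moved in opposite directions in the 2 lineages. In lineage A the share was 26.5%, 27.4% and 34.5% in +Lig4 A1 and 7.36%, 9.51% and 13.7% in Lig4-/- Ku70-/- A1_1, a difference of 19.3 points. In lineage C it was 8.10%, 6.63% and 5.97% in +Lig4 C and 23.4%, 21.2% and 26.3% in Lig4-/- Ku70-/- C1, a difference of -16.7 points. The lineages thus differed by 36.0 points, with every library of each lineage on its own side. The exact permutation p of this difference was 0.005, the smallest possible, and 0.215 after adjustment over the 43 measures, so it did not pass. The Igk joins of Lig4-/- Ku70-/- C1 lay mostly on the Vk side, 1826 of 2083. Each lineage is read from single clones, and neither add-back group shares a run with Lig4-/- Ku70-/- cells, so clone, run and genotype cannot be told apart.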

How the results depend on the processing

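Across 11 measures, 227 alternative values were computed for add-back against Lig4-/-. Of these 223 kept their direction and their side of the 0.05 threshold. Against WT A, where no p could reach 0.05 and only direction could change, 107 of 110 kept their direction. The 7 others came from counting repeated reads once. With each distinct junction counted once, the difference from Lig4-/- was -0.283 points for whole ends (exact permutation p = 0.665), -11.5 points for prey deletions (p = 0.24) and -3.85 points for the interchromosomal share (p = 0.7), and from WT A it was 0.88 on the log2 scale for abundance and -0.137 points for inverted joins. Distinct junctions were told apart by positions, orientation and insertion length or overlap, not by inserted bases. Whole-end joins of equal insertion length therefore count together, which limits their share by definition. For the other measures the cause was not tested. With each distinct fragment counted once, an alternative chosen after seeing the data, the 1 bp insertion share differed by 7.28 points from Lig4-/- (exact permutation p = 0.07) and 6.96 points from WT A.

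Leaving out each of the 12 libraries in turn kept every one of the 11 differences from Lig4-/-: abundance ranged from 6.81 to 7.39 on the log2 scale, whole ends from 38.2 to 46.2 points, insertions from 48.9 to 59.96, microhomology from -57.3 to -45.6 and the interchromosomal share from -38.7 to -22.5. The highest exact permutation p was 0.04, for prey deletions. Replicate numbers did not pair the libraries: the correlation of deviations ranged from -0.24 to 0.63 over the 6 same-numbered pairs. With the replicate block, abundance differed by 7.01 (exact sign-flip permutation p = 0.0312, the smallest possible), and no call among the 11 measures changed. Depth limits the Lig4-/- libraries, which hold 82 to 411 junctions, 16 to 362 rejoins and 32 to 72 interchromosomal joins each.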

Other observations

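In a further set of 3 Lig4-/- A1 libraries, brought to 310675 raw reads and used above only as an alternative reference, replicate 2 held 11 Igk joins among 46 interchromosomal joins, all in the Jk region, and the other 2 libraries held none. Of these 11, only 1 lay within 10 bp of the start of a Jk segment, and all 11 had the minus orientation. The +Lig4 A1 lists also carry a class for each read. In the authors' deposited table the class for insertion only made up 44.4%, 42.1% and 39.4% of reads and the class for resection only 16.3%, 16.8% and 17.8%. The class for deletion leading to microhomology made up 7.26%, 8.73% and 9.64% there, above the 4.42%, 5.38% and 5.68% with at least 2 bp of overlap counted here.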
